A study of Homo sapiens with 12 samples.

Results

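The comparison described here sets MR49F directly against C4-2, both derived from the human prostate cancer line LNCaP, with no LNCaP library in the test. The rule takes the 3 MR49F and the 3 C4-2 libraries, which are 6 of the 12 samples in the series, and all genes that pass a filter on low counts. The series profiled cultured prostate adenocarcinoma cells, sensitive or resistant to the antiandrogen enzalutamide, by sequencing poly(A)-selected RNA, with 3 biological replicates a line per the series' design text. Its labels call MR49F resistant, and C4-2 and LNCaP sensitive. The parental LNCaP responds to androgen, C4-2 came from it as a line that grows after castration, and MR49F came from it under selection for resistance to enzalutamide. Each line stands for itself alone, so that enzalutamide resistance and any other difference between these lines cannot be told apart. No genotype, dose or time is given in the labels, and whether enzalutamide was in the medium at harvest is not given in the sources used here.

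Androgens drive genes of the secretory prostate epithelium such as KLK3, the gene of prostate-specific antigen. Castration-resistant cells keep growing at low androgen, and enzalutamide is a drug that blocks androgen action in such cells. In the Notch pathway, ligands of the Jagged and Delta-like families on a neighbouring cell trigger the cleavage of a Notch receptor, whose freed intracellular part joins the DNA-binding protein RBPJ to switch on repressor genes of the HES and HEY families.

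The libraries held between 7140308 and 9375912 counted reads, apart from C4-2 replicate 1 with 42770072. The first principal component of log2 CPM (CPM, the usual scaling of a gene's reads to its library's total, here on TMM-scaled sizes) separated the lines and held 89.8% of the variance. Pairs of replicates of a line correlated at 0.989 to 0.996 across genes, which are not independent replicates. The median coefficient of variation between replicates was 6.70% in MR49F and 9.37% in C4-2, over 9660 genes with at least 10 CPM in both. C4-2 replicate 1 was set against the mean of both other C4-2 libraries, in log2 of CPM plus 1. Among 10775 genes with at least 10 CPM in either line, it lay more than 1 log2 unit above that mean in 2 genes and more than 1 below it in 12. Of the luminal markers that define prostate epithelium, KLK3, KLK2, TMPRSS2, FOLH1, HOXB13, KRT8 and KRT18 were read in all 6 libraries, the lowest value being 115 CPM of KRT8 in C4-2 replicate 2. The basal genes TP63 and KRT5 and the immune genes CD3E and CD3D had no count in either line, and PTPRC had 1 count in all. In RNA from whole cultures, fewer cells of a type and less RNA per cell cannot be told apart.

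The transcriptomes of the lines differed widely, with more genes far lower than far higher in MR49F than in C4-2. Of 14998 tested genes, edgeR called 8640 (57.6%) at an adjusted p under 0.05, of which 4083 (27.2% of tested genes) were higher and 4557 (30.4%) lower in MR49F. More than 2-fold apart were 916 higher genes (6.11%) and 1789 lower genes (11.9%), and more than 4-fold apart were 280 higher (1.87%) and 810 lower (5.4%). The median log2 fold change, always MR49F minus C4-2 here, was -0.01 over all tested genes, and the 5th and 95th percentiles were -2.13 and 1.12. The libraries of the lines did not overlap in 9328 tested genes (62.2%). Counts of called members in the gene lists below stand against the 27.2% higher and 30.4% lower over all tested genes. The filter keeps a gene with enough reads in 1 line alone. A gene scarce in the other line could then only come out higher in the line that kept it. Counts and medians of lists with such members partly follow from the filter. In simulated data of this depth, with 200 genes changed, a 1.5-fold change was called in 50.7% of the genes given it. A 2-fold change was called in 92.5% and a 4-fold change in 100%, and 18 unchanged genes were called too. Far more genes were called in the real data, so the same adjusted p there stands for another cut-off. These shares therefore do not carry over to the real comparison. A test against a 1.5-fold change left 1156 genes higher and 2008 lower. The p-values measure the spread between cultures of the same line, not between independent resistant lines.

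**Figure D1:**
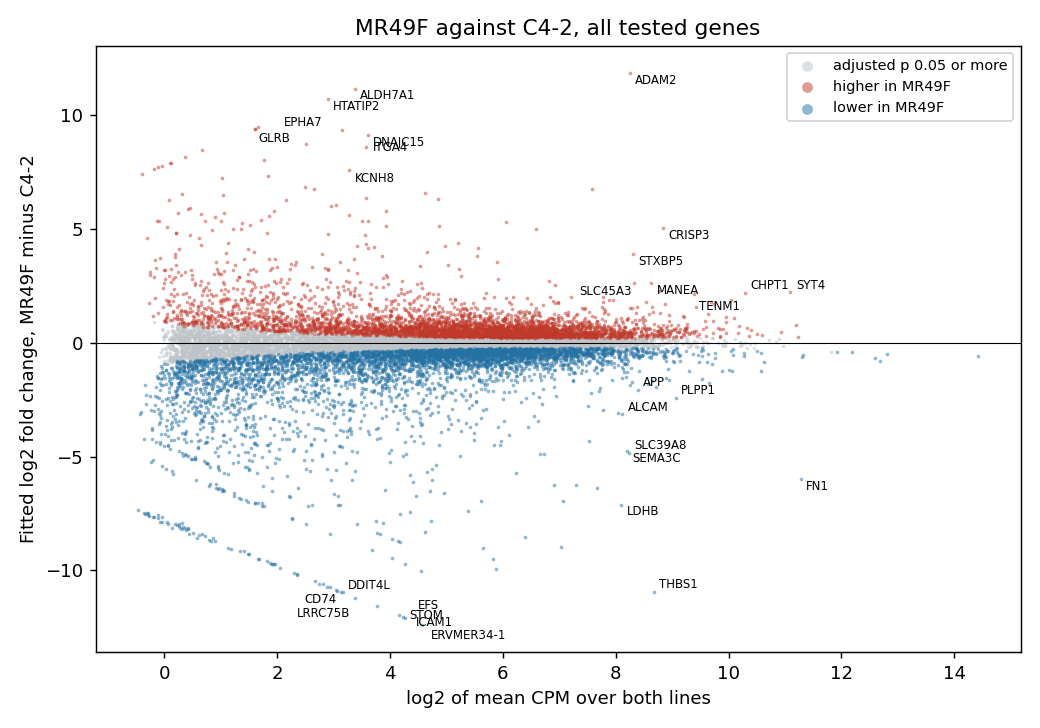
Each point is 1 of 14998 tested genes, with the log2 of its mean CPM over both lines on the x axis and the fitted log2 fold change (MR49F minus C4-2) on the y axis. Red points were higher and blue points lower in MR49F at an adjusted p under 0.05. The lower side reaches further out, with THBS1, LDHB and FN1 far below 0 at high CPM and ADAM2 far above it. The diagonal streaks at the left edges are genes with no or few counts in 1 line, whose fitted folds depend on the small count added by the fit.

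Genes more than 4-fold higher in MR49F are described first by their read share, which also grows with transcript length. SYT4, a synaptotagmin of secretory vesicles, stood at 3520.2, 3552 and 3743 CPM in the MR49F libraries and 746, 761 and 820.3 CPM in the C4-2 libraries (log2 fold change 2.22, SE 0.10, adjusted p = 7.9e-13, edgeR). CHPT1, which makes phosphatidylcholine from diacylglycerol, stood at 2026, 1972 and 2214 CPM in the MR49F libraries and 457, 438 and 454 CPM in the C4-2 libraries (log2 fold change 2.20, SE 0.09, adjusted p = 7.3e-13, edgeR). Neither gene had overlapping libraries, and LNCaP was near C4-2 in both, at 631 ± 21.8 CPM and 317 ± 9.99 CPM (mean ± SD, n = 3). SLC45A3, the prostate transporter prostein, stood at 744, 765 and 666 CPM in the MR49F libraries and 159, 134 and 155 CPM in the C4-2 libraries, with LNCaP at 344 ± 12.7 CPM in between. CRISP3, a secreted protein of the male reproductive tract, was at 888 ± 91.2 against 26.6 ± 2.10 CPM (MR49F against C4-2, mean ± SD, n = 3, as in all values of this form), and the teneurin TENM1 at 1089.7 ± 34.0 against 245 ± 65.9 CPM. C4-2 replicate 1, at 169 CPM of TENM1, lay below both other C4-2 libraries. MANEA, a mannosidase of the Golgi, was at 680.4 ± 37.1 against 110.3 ± 13.2 CPM, and STXBP5, a syntaxin-binding regulator of exocytosis, at 592 ± 31.8 against 40.0 ± 5.25 CPM. In log2 units these genes were higher by 2.16 (TENM1) to 5.05 (CRISP3), apart from ADAM2.

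ADAM2, a subunit of the sperm surface protein fertilin, had the largest log2 fold change among genes with at least 10 CPM in MR49F. It lies at chr8:39743735-39838289 (GRCh38, GENCODE 29). Its level was 618, 569 and 636 CPM in the MR49F libraries and 0.192, 0.124 and 0 CPM in the C4-2 libraries, with 9 reads in all C4-2 libraries (log2 fold change 11.84, SE 0.20, adjusted p = 3.2e-18, edgeR). LNCaP held 0.277 ± 0.172 CPM, so that the gene was near silent in both lines other than MR49F.

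The transcripts with the most reads in C4-2 among those more than 4-fold lower in MR49F follow. FN1, the matrix glycoprotein fibronectin, stood at 78.2, 86.5 and 65.7 CPM in the MR49F libraries, 4576, 5066 and 5013 CPM in the C4-2 libraries and 341, 344 and 343 CPM in the LNCaP libraries (log2 fold change -5.99, SE 0.13, adjusted p = 6.5e-17 for MR49F against C4-2, edgeR). THBS1, the matrix protein thrombospondin 1 (chr15:39581079-39599466, GRCh38), stood at 0.321, 0.348 and 0.563 CPM in the MR49F libraries, 762, 819 and 876 CPM in the C4-2 libraries and 45.3, 45.5 and 44.1 CPM in the LNCaP libraries (log2 fold change -10.93, SE 0.18, adjusted p = 3.2e-18, edgeR). In both genes every C4-2 library was above every LNCaP library and every MR49F library below, so that C4-2 and MR49F lay on opposite sides of LNCaP. LDHB, the lactate dehydrogenase subunit B, showed another order, at 3.75, 4.64 and 3.49 CPM in the MR49F libraries, 589, 539 and 504 CPM in the C4-2 libraries and 417, 428 and 417 CPM in the LNCaP libraries (log2 fold change -7.10, SE 0.14, adjusted p = 2.3e-17, edgeR). Here C4-2 and LNCaP were both high. The zinc and manganese transporter SLC39A8 was at 20.4 ± 0.541 against 581 ± 4.96 CPM, the secreted guidance cue SEMA3C at 20.9 ± 3.45 against 568 ± 85.4 CPM and the adhesion molecule ALCAM at 56.5 ± 4.15 against 499 ± 26.3 CPM. The membrane protein APP was at 129.5 ± 2.47 against 543 ± 20.3 CPM, and the lipid phosphatase PLPP1 at 168 ± 9.40 against 900.3 ± 149 CPM.

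Some genes were close to silent in 1 of the lines. With cut-offs chosen after values were seen, 63 genes (0.42% of those tested) had at least 10 CPM in C4-2 and under 0.5 CPM in MR49F, and 16 genes (0.107%) showed the reverse. Of the 63 genes, LNCaP held at least 10 CPM in 23, under 0.5 CPM in 15 and a level between in 25. Of the 16 genes, LNCaP held at least 10 CPM in 3, under 0.5 CPM in 6 and a level between in 7. The sets thus differed in LNCaP gene by gene, and neither was uniformly present or absent in the parental line.

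MR49F had no read at all of 17 of the 63 genes, against a floor of 3 reads over the group that counting alone allows. ICAM1, the endothelial and epithelial ligand of leukocyte integrins, stood at 0 CPM in all MR49F libraries and 43.8, 33.1 and 36.5 CPM in the C4-2 libraries, at least 370.0-fold lower. LNCaP held only 0.547 ± 0.0162 CPM. EFS, a scaffold protein of SRC-family kinases, stood at 0 CPM in all MR49F libraries and 40.9, 34.1 and 40.3 CPM in the C4-2 libraries, at least 357-fold lower, and LNCaP held 34.3 ± 1.53 CPM. The retroviral envelope gene ERVMER34-1 was at least 449-fold lower, the membrane protein STOM at least 337-fold, LRRC75B at least 258-fold and the mTOR inhibitor DDIT4L at least 160.2-fold. LNCaP held 22.1 ± 2.85 CPM of DDIT4L and 0.506 ± 0.249 CPM of STOM. Counting error is all that these bounds cover, as the reads carry no molecular identifiers.

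In the other direction, ALDH7A1, an aldehyde dehydrogenase of lysine breakdown, stood at 19.1, 20.99 and 22.2 CPM in the MR49F libraries and 0 CPM in all C4-2 libraries, at least 393-fold higher, and no LNCaP library held a read. The oxidoreductase gene HTATIP2 stood at 16.0, 14.1 and 14.7 CPM in the MR49F libraries and 0 CPM in all C4-2 libraries, at least 284-fold higher. DNAJC15, a mitochondrial co-chaperone, stood at 25.1, 21.8 and 26.1 CPM in the MR49F libraries, 0.0480, 0 and 0 CPM in the C4-2 libraries and 19.1, 18.6 and 18.1 CPM in the LNCaP libraries, and pooled counts put it 693-fold (95% interval 191 to 5730.4) higher in MR49F than in C4-2. The transcript was thus present in MR49F and LNCaP, with 2 reads in all C4-2 libraries. The ephrin receptor EPHA7 was 999.6-fold (95% interval 179 to 39565) higher by pooled counts, with a fitted log2 fold change of 9.37, and the glycine receptor subunit GLRB 646-fold (95% interval 115 to 25596). Pooled ratios and bounds weight libraries by depth. Those of C4-2 thus rest mostly on C4-2 replicate 1, with a scaled size of 41649822 against 8055222 and 7141538 in replicates 2 and 3. The potassium channel KCNH8 was at 19.2 ± 0.748 against 0.145 ± 0.1002 CPM (log2 fold change 7.62, SE 0.30, adjusted p = 2.6e-13, edgeR).

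**Figure D2:**
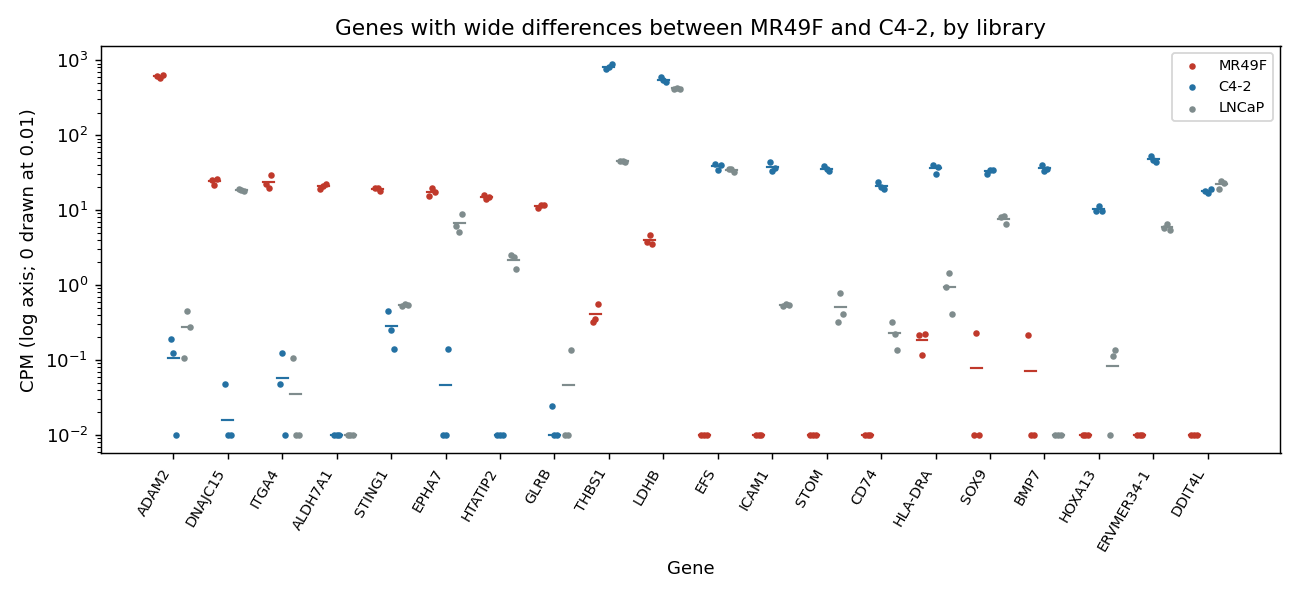
CPM on a log axis (0 drawn at 0.01) of 20 genes in the 3 libraries of each line, with bars at the means. The 8 genes at the left are high in MR49F and near the floor in C4-2, and the 12 genes at the right show the reverse. LNCaP, in grey, sits with C4-2 for LDHB, EFS and DDIT4L, with MR49F for DNAJC15, and near the floor for BMP7 and HOXA13.

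In the Notch pathway, 2 of 3 tested receptors were lower in MR49F, 2 of 4 tested ligands were higher, and 3 of 4 tested target genes were lower. Receptors and ligands together were called in 4 of 7 genes, near the 57.6% over all tested genes. NOTCH3, a receptor best known from vascular smooth muscle, stood at 2.79, 4.18 and 4.16 CPM in the MR49F libraries, 55.8, 53.6 and 59.0 CPM in the C4-2 libraries and 30.7, 33.5 and 29.9 CPM in the LNCaP libraries (chr19:15159038-15200981, GRCh38), and MR49F lay below C4-2 with log2 fold change -3.92, SE 0.15, adjusted p = 2.0e-13 (edgeR). Both C4-2 and LNCaP were well above MR49F. NOTCH1 stood at 20.3, 22.3 and 23.9 CPM in the MR49F libraries and 43.5, 38.9 and 51.0 CPM in the C4-2 libraries (log2 fold change -1.002, SE 0.12, adjusted p = 1.7e-06, edgeR). NOTCH2 stood at 103, 102 and 98.0 CPM in the MR49F libraries and 88.6, 120.0 and 116 CPM in the C4-2 libraries and did not pass (log2 fold change -0.09, SE 0.11, adjusted p = 0.52, edgeR). C4-2 replicate 1 was the lowest NOTCH2 library, and without it the log2 fold change was -0.22 with an adjusted p of 0.032. NOTCH4 had 16 and 38 reads and was not tested.

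Of the ligands, JAG1 stood at 28.4, 29.9 and 28.8 CPM in the MR49F libraries and 18.5, 16.0 and 18.1 CPM in the C4-2 libraries (log2 fold change 0.72, SE 0.12, adjusted p = 4.5e-05, edgeR), while LNCaP held 104 ± 7.81 CPM, more than either derived line. DLL1 was at 5.18 ± 0.202 against 2.80 ± 1.27 CPM (log2 fold change 0.82, SE 0.25, adjusted p = 0.0086, edgeR). JAG2, at 66.9 ± 2.19 against 64.2 ± 11.1 CPM, and DLL3, at 9.08 ± 1.06 against 7.82 ± 1.60 CPM, had overlapping libraries and did not pass (adjusted p = 0.69 and 0.49, edgeR). DLL4, DLK1 and DLK2 had too few reads to test.

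The target HES1, a repressor that Notch signalling induces in many tissues, stood at 0.857, 1.86 and 0.675 CPM in the MR49F libraries, 8.62, 7.70 and 9.10 CPM in the C4-2 libraries and 1.06, 1.80 and 2.74 CPM in the LNCaP libraries (log2 fold change -2.91, SE 0.27, adjusted p = 3.4e-08 for MR49F against C4-2, edgeR). All 3 C4-2 libraries were above all MR49F and LNCaP libraries, and MR49F and LNCaP overlapped. HES4 stood at 0.107, 0.232 and 0.338 CPM in the MR49F libraries and 2.98, 4.10 and 1.96 CPM in the C4-2 libraries (log2 fold change -3.70, SE 0.45, adjusted p = 1.3e-06, edgeR), which rests on 6 and 171 reads in MR49F and C4-2. NRARP, a feedback inhibitor of Notch complexes, was at 4.92 ± 0.266 against 7.71 ± 0.431 CPM (log2 fold change -0.63, SE 0.17, adjusted p = 0.0039, edgeR). HEY1, at 2.16 ± 0.980 against 2.63 ± 0.519 CPM, did not pass (adjusted p = 0.50, edgeR). HES6, which opposes HES1, also was lower, at 9.77 ± 0.284 against 27.6 ± 5.62 CPM (log2 fold change -1.53, SE 0.15, adjusted p = 1.2e-07, edgeR). JAG1, DLL1 and NRARP did not pass a test against a 1.5-fold change.

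RBPJ binds DNA through the core TGGGAA, and the promoter of HES1 is shown because it carries 2 matches to this core, both in the same direction. Only this exact core was searched, so other forms of an RBPJ site stay in lower case. The 2 marked matches are not identified here as a paired site. The stretch before the outermost annotated transcript start, chr3:194135898-194136144 on the plus strand (GRCh38.p14, RefSeq promoter table), is printed with TGGGAA, searched on both strands, in capitals.
HES1 promoter: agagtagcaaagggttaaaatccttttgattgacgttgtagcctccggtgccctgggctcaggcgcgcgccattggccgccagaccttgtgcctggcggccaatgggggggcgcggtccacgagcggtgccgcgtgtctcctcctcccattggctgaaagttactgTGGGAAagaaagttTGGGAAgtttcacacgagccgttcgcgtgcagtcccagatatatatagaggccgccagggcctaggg
In windows of 300 bases around the gene start (250 before and 50 after), HES1 had 2 matches, HES4 had 1 and NRARP had 0. TGGGAA stood in 24.3% of 27305 promoter windows of this length in the table, and in 21.6% of the 10639 that matched tested genes by symbol. A match describes letters in a window and says nothing about binding in these cells.

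Among 31 tested genes of Notch processing, trafficking and cofactors, 7 were higher and 10 lower (median 0.11), close to the share over all genes. LFNG, a glycosyltransferase that tunes receptor choice of ligand, was at 1.67 ± 0.843 against 10.2 ± 0.824 CPM (log2 fold change -2.62 (SE 0.25)). Of the Deltex ubiquitin ligases, DTX2 was lower (-1.67 (SE 0.17)) and DTX3 (1.42 (SE 0.22)) and DTX4 (2.00 (SE 0.20)) were higher. The acetyltransferase KAT2B, a Notch coactivator, was higher (1.12 (SE 0.14)). APH1A, a subunit of the receptor-cleaving gamma-secretase, was at 165 ± 5.77 against 156 ± 13.6 CPM and did not pass (adjusted p = 0.53, edgeR).

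More androgen response genes were higher than lower in MR49F, while KLK3 was lower. KLK3 stood at 3526, 3352 and 3193 CPM in the MR49F libraries, 4832, 3884 and 4381 CPM in the C4-2 libraries and 2575, 2703 and 2758 CPM in the LNCaP libraries (log2 fold change -0.38, SE 0.10, adjusted p = 0.0040, edgeR). C4-2 libraries ranged widely here, yet the lowest C4-2 library lay above the highest MR49F library, and LNCaP was below both. KLK3 did not pass a test against a 1.5-fold change. NR3C1, the glucocorticoid receptor, had 3 reads in MR49F and 10 in C4-2 and was not tested.

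Of 38 tested androgen response genes 22 were higher and 12 lower in MR49F, with a median log2 fold change of 0.46 against -0.01 over all genes. FKBP5, a co-chaperone of steroid receptors, stood at 557, 603 and 637 CPM in the MR49F libraries and 188, 229 and 193 CPM in the C4-2 libraries (log2 fold change 1.56, SE 0.10, adjusted p = 2.8e-10, edgeR). TMPRSS2, a secretory protease, stood at 579.6, 603 and 558 CPM in the MR49F libraries and 236, 214 and 227 CPM in the C4-2 libraries and PMEPA1, an inhibitor of TGF-beta signalling, at 698, 729 and 721 CPM in the MR49F libraries and 237, 209 and 216 CPM in the C4-2 libraries (log2 fold changes 1.36 (SE 0.09) and 1.70 (SE 0.09)). In each of these 3 genes all MR49F libraries were above all C4-2 libraries. ADAM7, an epididymal ADAM protein, differed most among the higher members, at 378 ± 21.6 CPM in MR49F and 3.41 ± 0.273 CPM in C4-2 (log2 fold change 6.75, SE 0.13, adjusted p = 1.8e-17, edgeR), with LNCaP at 119.8 ± 3.83 CPM.

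The lower members of the androgen list included TRPM8, the cold-sensing calcium channel, at 4.39, 3.83 and 4.05 CPM in the MR49F libraries and 293, 323 and 314 CPM in the C4-2 libraries (log2 fold change -6.24, SE 0.13, adjusted p = 3.4e-17, edgeR). LNCaP held 16.3 ± 0.115 CPM, so that C4-2 stood far above both other lines. PLPP1 (-2.42 (SE 0.12)) and the growth-arrest gene NDRG1 (-1.27 (SE 0.10)) were lower too. FOLH1, the gene of prostate-specific membrane antigen, was at 1187 ± 66.9 against 1162 ± 25.3 CPM and did not pass (adjusted p = 0.79, edgeR). The list therefore held members that moved by more than 6 log2 units in either direction.

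**Figure D3:**
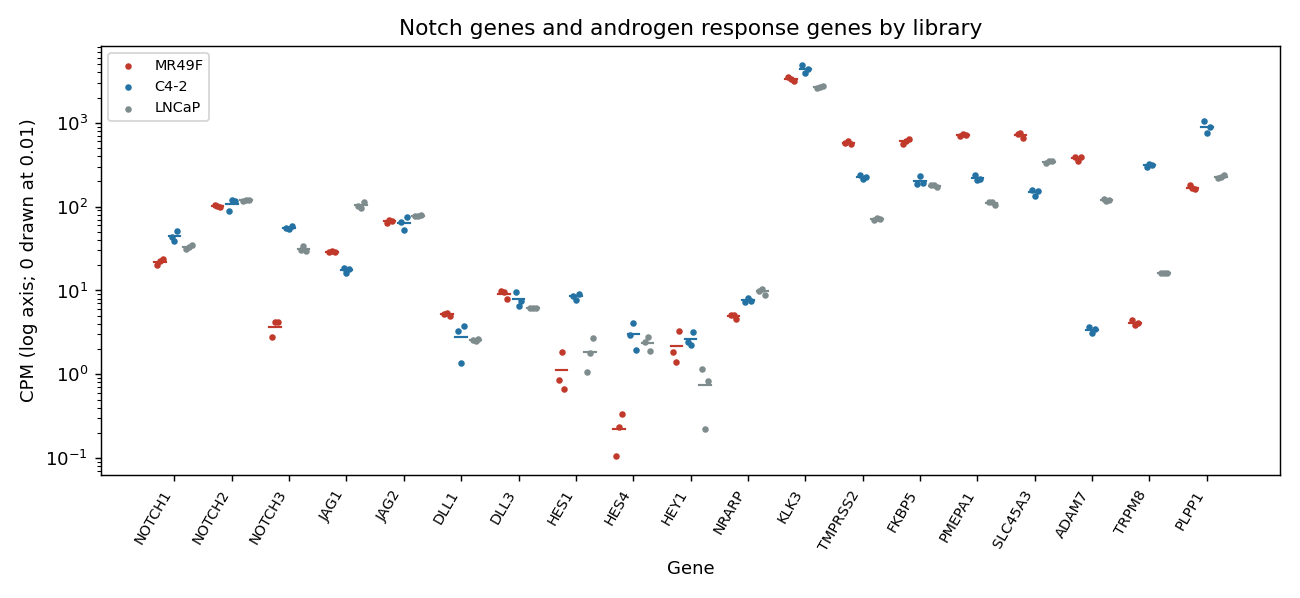
CPM on a log axis in the 3 libraries of each line for 11 Notch genes and 8 androgen genes, with bars at the means. NOTCH3 and HES4 lie lowest in MR49F and HES1 overlaps LNCaP there, whereas TMPRSS2, FKBP5, PMEPA1 and SLC45A3 are highest there. KLK3 is highest in C4-2, as are TRPM8 and PLPP1.

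Among steroid receptors and their cofactors 6 of 14 tested members were higher and 3 lower in MR49F (median log2 fold change 0.20). GATA2, a pioneer transcription factor of the prostate, was lower at 118 ± 7.01 against 273 ± 4.24 CPM (-1.21 (SE 0.09)), as were the epithelial factor GRHL2 (-0.63 (SE 0.09)) and the coactivator NCOA3 (-0.63 (SE 0.12)), and the coactivator NCOA4 was higher (0.35 (SE 0.09)). FOXA1, the other main pioneer factor, was at 420.0 ± 23.4 against 371 ± 12.7 CPM and did not pass (adjusted p = 0.097, edgeR), although its libraries did not overlap. It passed without C4-2 replicate 1 (0.21) and with the LNCaP libraries in the fit (0.19).

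Of the genes of steroid synthesis and breakdown, 6 of 17 tested members were higher and 10 lower in MR49F (median log2 fold change -0.66). CYP11A1, which cleaves the cholesterol side chain, stood at 0 CPM in all MR49F libraries and 3.94, 2.98 and 3.50 CPM in the C4-2 libraries, at least 33.5-fold lower. AKR1C1, a reductase of steroids, was 111-fold (95% interval 19.8 to 4419.9) lower by pooled counts and AKR1C2 42.7-fold (95% interval 11.7 to 356). The androgen-conjugating enzyme UGT2B15 was at 0.714 ± 0.286 against 8.51 ± 0.654 CPM and UGT2B11 at 3.48 ± 0.757 against 0.415 ± 0.306 CPM, while LNCaP held 97.1 ± 3.37 CPM and 34.9 ± 2.38 CPM. UGT2B17, at 1.64 ± 1.02 against 2.38 ± 0.502 CPM, did not pass (adjusted p = 0.29, edgeR), except without MR49F replicate 3, where its log2 fold change was -1.07. AKR1C and UGT2B genes are near-identical copies, so reads may have been split between them in counting.

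Epithelial junction genes were mostly lower in MR49F, and so were the few mesenchymal genes with enough reads. Of the junction genes, 4 of 36 tested members were higher and 23 lower in MR49F (median log2 fold change -0.48). CDH1, E-cadherin, stood at 369, 368 and 353 CPM in the MR49F libraries and 1076, 1112 and 1137 CPM in the C4-2 libraries (log2 fold change -1.61, SE 0.09, adjusted p = 2.8e-11, edgeR). CDH3, P-cadherin, was at 0 CPM in MR49F and 6.45 ± 0.374 CPM in C4-2, at least 58.7-fold lower. The desmosomal DSP was at 67.1 ± 2.31 against 309.7 ± 41.2 CPM and the nectin NECTIN4 at 10.02 ± 1.56 against 37.5 ± 1.35 CPM. TJP1, a scaffold of tight junctions, went the other way, at 1021, 1013 and 1064 CPM in the MR49F libraries and 285, 405 and 352 CPM in the C4-2 libraries (log2 fold change 1.58, SE 0.11, adjusted p = 1.1e-09, edgeR). CTNNB1, beta-catenin, was at 366 ± 8.18 against 420.6 ± 6.75 CPM and missed the threshold (adjusted p = 0.056, edgeR), which it passed without C4-2 replicate 1 (-0.18) and with DESeq2 (-0.19). With the LNCaP libraries in the fit 7 junction genes were higher.

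Only 5 of the 20 listed mesenchymal markers had enough reads to test, and of these 4 were lower and none higher (median log2 fold change -5.99). VIM, the intermediate filament vimentin, stood at 0.7501, 0.928 and 0.788 CPM in the MR49F libraries, 58.2, 49.5 and 51.1 CPM in the C4-2 libraries and 6.26, 8.55 and 5.76 CPM in the LNCaP libraries (log2 fold change -6.01, SE 0.19, adjusted p = 9.8e-15 for MR49F against C4-2, edgeR). The matrix protein TNC was 178-fold (95% interval 31.7 to 7031) lower by pooled counts, and TAGLN, an actin-binding protein of contractile cells, was at 5.33 ± 1.31 against 26.4 ± 5.57 CPM. With FN1, described above, these are the 4 lower members. The filter keeps a gene with enough reads in 1 line alone. VIM and TNC, scarce in MR49F, passed it through C4-2 and so could only come out lower. The count and the median of this list thus partly follow from the filter. SNAI1, a repressor of E-cadherin, was at 2.11 ± 0.552 against 1.90 ± 0.887 CPM and did not pass (adjusted p = 0.83, edgeR). Lower CDH1 and lower VIM thus stood side by side in the same libraries.

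Among integrins and matrix receptors 4 of 25 tested members were higher and 18 lower in MR49F (median log2 fold change -0.81). ITGA4, the alpha subunit of the receptor for VCAM1 and fibronectin (chr2:181457202-181536187, GRCh38), stood at 22.5, 19.9 and 28.9 CPM in the MR49F libraries and 0.0480, 0.124 and 0 CPM in the C4-2 libraries, 451-fold (95% interval 154 to 2193) higher by pooled counts, and at 0.0354 ± 0.0613 CPM in LNCaP. ITGB5 was lower at 50.1 ± 5.19 against 155 ± 16.0 CPM, the proteoglycan SDC4 at 27.8 ± 2.06 against 179.5 ± 13.6 CPM and the adhesion gene NCAM2 at 132 ± 11.4 against 475 ± 28.1 CPM. SDC2, at 37.6 ± 5.22 against 31.4 ± 1.03 CPM, did not pass (adjusted p = 0.068, edgeR), except without MR49F replicate 2 (0.38) or with the LNCaP libraries in the fit (0.28). The count of higher members fell from 4 to 2 without C4-2 replicate 2, without C4-2 replicate 3 or without MR49F replicate 1.

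Of the luminal markers, 2 of 14 tested members were higher and 6 lower in MR49F (median log2 fold change -0.40). DPP4, the surface peptidase CD26, stood at 4.18, 5.45 and 4.95 CPM in the MR49F libraries, 397, 403 and 401 CPM in the C4-2 libraries and 1.91, 1.58 and 1.92 CPM in the LNCaP libraries (log2 fold change -6.37, SE 0.13, adjusted p = 2.5e-17 for MR49F against C4-2, edgeR), and the secreted zinc-binding glycoprotein AZGP1 stood at 53.3, 51.7 and 47.5 CPM in the MR49F libraries and 468, 331 and 368 CPM in the C4-2 libraries (log2 fold change -2.94, SE 0.12, adjusted p = 6.5e-13, edgeR). In both genes C4-2 was far above LNCaP. The tetraspanin CD9 was lower at 174 ± 12.1 against 666 ± 70.5 CPM, CD24 was higher at 23.1 ± 2.25 against 3.98 ± 0.789 CPM, and the Golgi protein GOLM1 was higher at 655 ± 19.1 against 419 ± 20.4 CPM. HOXB13, a homeobox factor of prostate identity, was at 309.5 ± 20.3 against 265 ± 22.3 CPM and missed the threshold (adjusted p = 0.057, edgeR). Without C4-2 replicate 1 the luminal median became 0.02, with 4 members higher, HOXB13 among them (0.30), and with that library thinned to the depth of the others the median was -0.25.

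Of the basal markers, 0 of 5 tested members were higher and 3 lower in MR49F (median log2 fold change -0.999). These were EGFR, the epidermal growth factor receptor, at 81.3 ± 8.54 against 209 ± 27.7 CPM, the cytolinker DST at 20.7 ± 1.01 against 41.95 ± 6.02 CPM and the laminin chain LAMB3 at 0.190 ± 0.243 against 5.23 ± 0.601 CPM, while the integrin ITGB4 did not pass (adjusted p = 0.57, edgeR). Among stem and progenitor markers 3 of 15 tested members were higher and 10 lower in MR49F (median log2 fold change -1.05). ALDH1A1, a retinaldehyde dehydrogenase, stood at 0 CPM in all MR49F libraries and 7.61, 7.57 and 7.42 CPM in the C4-2 libraries, at least 67.8-fold lower, with no read in LNCaP. The neural filament gene NES was 53.7-fold (95% interval 18.2 to 262) lower by pooled counts. LY6E, at 79.9 ± 7.35 against 79.3 ± 14.8 CPM, did not pass (adjusted p = 0.99, edgeR).

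Of neuroendocrine and neuronal markers, 12 of 34 were tested, with 5 higher and 4 lower (median 0.19, or 0.08 without C4-2 replicate 1). Beside SYT4, the higher members included the neuronal enolase ENO2 at 25.1 ± 2.07 against 7.42 ± 1.35 CPM, the decarboxylase DDC at 89.1 ± 1.57 against 34.9 ± 5.35 CPM and the glutamate receptor subunit GRIN3A at 104 ± 2.27 against 44.4 ± 3.63 CPM. SOX4, a transcription factor, was at 71.4 ± 2.42 against 72.7 ± 4.14 CPM and did not pass (adjusted p = 0.87, edgeR). The defining markers were absent or scarce. INSM1 had no read in either line, and CHGA had 4 in MR49F and 0 in C4-2.

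Genes of antigen presentation, inflammation and the interferon response were mostly lower in MR49F. Of the antigen genes, 3 of 30 tested members were higher and 24 lower in MR49F (median log2 fold change -0.99). HLA genes such as HLA-DRA lie in the window chr6:30000001-40000000, where 99 of 169 tested genes were lower and 9 higher (median -0.44). Members from that window are not independent of each other. Whether the list differs from its region was not tested. CD74, the invariant chain of MHC class II, stood at 0 CPM in all MR49F libraries and 23.4, 20.2 and 19.0 CPM in the C4-2 libraries, at least 200.2-fold lower. The class II gene HLA-DRA stood at 0.214, 0.116 and 0.225 CPM in the MR49F libraries, 40.4, 30.0 and 37.4 CPM in the C4-2 libraries and 0.955, 1.46 and 0.412 CPM in the LNCaP libraries (log2 fold change -7.54, SE 0.28, adjusted p = 8.4e-14 for MR49F against C4-2, edgeR), and HLA-DPA1 was at 0.562 ± 0.301 against 9.77 ± 2.18 CPM. Both class II genes were far higher in C4-2 than in LNCaP. CD74 and HLA-DRA, scarce in MR49F, passed the filter through C4-2 and so could only come out lower. The class I gene HLA-E was at 13.1 ± 0.322 against 49.4 ± 7.46 CPM. HLA genes resemble each other closely, so their counts are uncertain. CD274, the immune checkpoint ligand PD-L1, went against the list at 9.86, 9.28 and 9.11 CPM in the MR49F libraries, 0.936, 0.248 and 0.840 CPM in the C4-2 libraries and 16.0, 13.6 and 15.8 CPM in the LNCaP libraries (log2 fold change 3.54, SE 0.25, adjusted p = 1.1e-09, edgeR), with C4-2 the lowest line. B2M, the light chain of class I, was at 555 ± 40.3 against 506 ± 66.7 CPM and did not pass (adjusted p = 0.30, edgeR), except without C4-2 replicate 1 (0.24).

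Of the inflammatory genes, 2 of 21 tested members were higher and 16 lower in MR49F (median log2 fold change -1.53), and 14 of the lower members were more than 2-fold lower. ICAM1, described above, and CCL20, scarce in MR49F, passed the filter through C4-2 and so could only come out lower. Of 18 listed cytokine and adhesion genes only 8 were tested, all lower. The count and the median of this list thus partly follow from the filter. The chemokine CCL20 stood at 0, 0.116 and 0 CPM in the MR49F libraries and 51.0, 42.95 and 47.5 CPM in the C4-2 libraries, 1327-fold (95% interval 238 to 52445) lower by pooled counts. BIRC3, an inhibitor of apoptosis in the TNF pathway, stood at 5.04, 5.10 and 5.63 CPM in the MR49F libraries and 55.2, 66.3 and 65.8 CPM in the C4-2 libraries (log2 fold change -3.56, SE 0.14, adjusted p = 2.4e-13, edgeR). IRAK2, a kinase of interleukin-1 and Toll-like receptors, was 122-fold (95% interval 33.7 to 1013) lower by pooled counts, and TNFAIP3, the feedback inhibitor A20, was at 1.43 ± 0.532 against 13.6 ± 0.969 CPM. RELA, the NF-kB subunit p65, was at 67.2 ± 9.58 against 62.3 ± 4.24 CPM and did not pass (adjusted p = 0.45, edgeR). The higher members numbered 1 without C4-2 replicate 1.

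Among interferon response genes 5 of 39 tested members were higher and 22 lower in MR49F (median log2 fold change -0.56). The guanylate-binding protein GBP2 was at 0.439 ± 0.381 against 13.5 ± 0.664 CPM, the receptor IFNGR1 at 45.8 ± 1.70 against 114 ± 9.27 CPM and the RNA sensor OAS3 at 21.8 ± 1.00 against 51.8 ± 4.45 CPM, each lower. STING1, the adaptor of cytosolic DNA sensing (chr5:139475534-139482935, GRCh38), stood at 19.9, 19.9 and 17.8 CPM in the MR49F libraries and 0.456, 0.248 and 0.140 CPM in the C4-2 libraries (log2 fold change 5.63, SE 0.24, adjusted p = 7.1e-13, edgeR), with LNCaP at 0.547 ± 0.0162 CPM. IFIT5, an RNA-binding interferon gene, was higher too, at 13.6 ± 1.24 against 3.32 ± 0.985 CPM. DTX3L, at 101 ± 7.51 against 99.2 ± 9.48 CPM, did not pass (adjusted p = 0.78, edgeR). Markers of other cell types were scarce. CD8A, the sole tested immune marker of 14, was lower at 1.24 ± 0.731 against 3.32 ± 0.463 CPM, and the 5 tested fibroblast and endothelial markers of 15 were COL1A1 (5.59 ± 0.113 against 16.3 ± 2.64 CPM), COL3A1 (0.262 ± 0.238 against 5.97 ± 0.117 CPM), PDGFRB (0.629 ± 0.208 against 1.48 ± 0.287 CPM) and VWF (0.483 ± 0.0460 against 2.90 ± 0.344 CPM), all lower, and LUM, at least 35.3-fold higher on 50 and 0 reads in MR49F and C4-2. PDGFRB lost its call without C4-2 replicate 1 (-1.03) and with DESeq2 (-1.26). Their part in the immune gene results was not tested, and PTPRC, CD3E and CDH5 stood at 0 or 1 read over all 6 libraries.

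**Figure D4:**
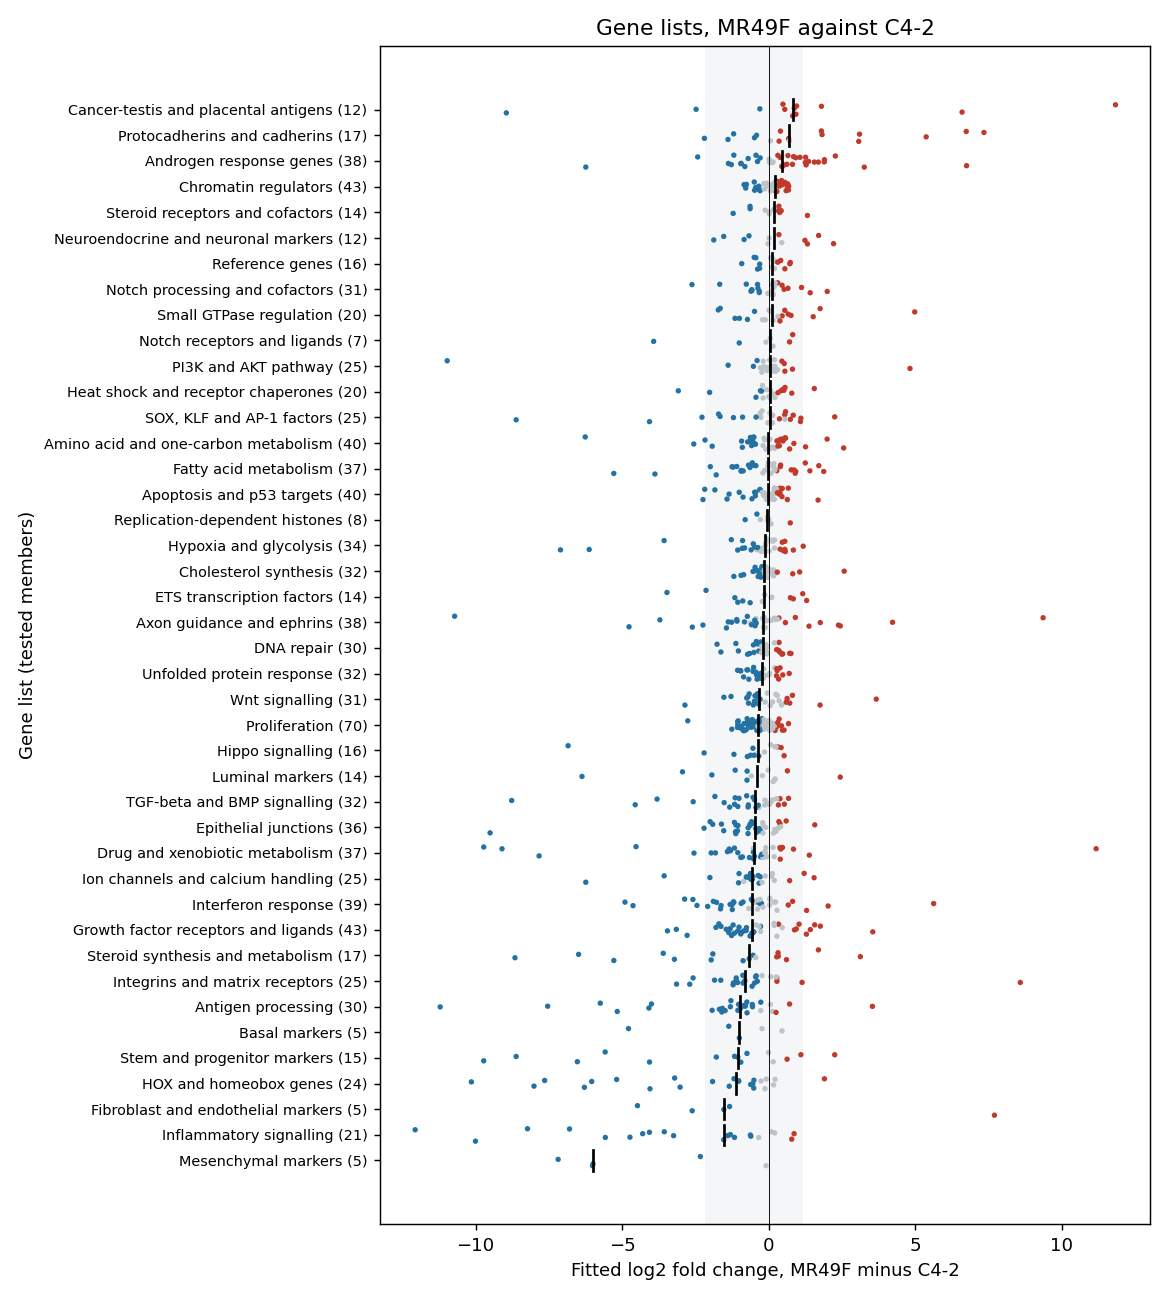
Fitted log2 fold changes of the tested members of each gene list with at least 5 of them, ordered by their median (black bar), with the number tested in brackets. Red members were higher and blue members lower in MR49F at an adjusted p under 0.05, and the shaded band spans the 5th to 95th percentile of all tested genes (-2.13 to 1.12). The mesenchymal, inflammatory, fibroblast and endothelial, and HOX lists sit lowest, and cancer-testis antigens and protocadherins highest. The medians of these lists partly follow from the filter, which keeps genes with enough reads in 1 line alone. Each of them holds members scarce in the other line, such as ICAM1, HOXA13, LUM, CDH7 and ADAM2.

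Growth factor genes were lower in MR49F more often than higher. Of receptors, ligands and their feedback regulators, 9 of 43 tested members were higher and 27 lower in MR49F (median log2 fold change -0.58). IGF1R, the receptor of insulin-like growth factors, stood at 318, 339 and 320.0 CPM in the MR49F libraries and 101, 114 and 114 CPM in the C4-2 libraries (log2 fold change 1.57, SE 0.09, adjusted p = 9.0e-11, edgeR), whereas its ligand IGF1 was lower at 4.33 ± 0.410 against 30.1 ± 3.55 CPM and the binding protein IGFBP3 at 90.2 ± 2.27 against 278 ± 31.0 CPM. FGFR3 was at 1.86 ± 0.212 against 20.5 ± 0.360 CPM. DUSP4, a phosphatase of MAP kinases, stood at 109.6, 113 and 108 CPM in the MR49F libraries and 8.93, 9.06 and 10.6 CPM in the C4-2 libraries (log2 fold change 3.56, SE 0.12, adjusted p = 1.7e-14, edgeR), above LNCaP at 17.7 ± 1.27 CPM too. IGF2R, at 302 ± 23.7 against 265 ± 31.8 CPM, did not pass (adjusted p = 0.12, edgeR), except without C4-2 replicate 2 (0.28).

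In the TGF-beta and BMP pathway 4 of 32 tested members were higher and 18 lower in MR49F (median log2 fold change -0.46). BMP7, a ligand, was 511-fold (95% interval 141 to 4221) lower by pooled counts, with no read in LNCaP. The activin subunit INHBB was at 1.15 ± 0.0994 against 16.2 ± 1.46 CPM, the BMP target ID3 at 6.99 ± 0.646 against 41.0 ± 8.63 CPM, the decoy receptor BAMBI at 70.7 ± 1.53 against 158 ± 10.5 CPM and the stress cytokine GDF15 at 31.8 ± 1.93 against 113 ± 26.6 CPM, each lower. SMAD5, a transducer, was at 138 ± 8.95 against 145 ± 22.6 CPM and did not pass (adjusted p = 0.64, edgeR). The higher members numbered 2 without MR49F replicate 3.

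Of Wnt genes, 6 of 31 tested members were higher and 16 lower in MR49F (median log2 fold change -0.34). WNT5A, a ligand of the beta-catenin-independent branch, stood at 67.3, 64.7 and 71.9 CPM in the MR49F libraries and 18.1, 22.7 and 20.4 CPM in the C4-2 libraries (log2 fold change 1.76, SE 0.11, adjusted p = 3.2e-10, edgeR), and the secreted antagonist SFRP1 was also higher at 19.4 ± 2.09 against 1.30 ± 0.455 CPM. The receptors FZD4 (10.2 ± 1.03 against 74.6 ± 7.33 CPM) and FZD1 (25.5 ± 1.81 against 62.0 ± 2.34 CPM) and the feedback target AXIN2 (3.25 ± 0.5005 against 9.24 ± 0.823 CPM) were lower. The coreceptor LRP5 did not pass (adjusted p = 0.68, edgeR). Without MR49F replicate 1, or without MR49F replicate 2, 10 members were lower in place of 16, and without C4-2 replicate 2 the median was -0.22.

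Of Hippo genes, 3 of 16 tested members were higher and 8 lower in MR49F (median log2 fold change -0.38). AMOTL2, a junctional regulator of YAP, was 148-fold (95% interval 26.4 to 5875) lower by pooled counts, although LNCaP held 6.24 ± 1.23 CPM. YAP1 itself was at 89.7 ± 6.93 against 138 ± 22.1 CPM, its partner TEAD2 at 2.14 ± 1.27 against 10.02 ± 0.444 CPM, the cofactor VGLL4 at 59.4 ± 2.68 against 86.1 ± 4.14 CPM and the target CCN1 at 6.85 ± 0.696 against 15.5 ± 0.901 CPM, all lower, and the upstream NF2 did not pass (adjusted p = 0.25, edgeR). The Hippo median was -0.24 without MR49F replicate 2. In the PI3K and AKT list 36% of tested members were called against 57.6% of all tested genes, with 5 higher and 4 lower of 25 tested, median 0.05, and 9 were higher with the LNCaP libraries in the fit. The mTOR inhibitor DEPTOR was lower at 10.002 ± 0.959 against 26.0 ± 0.271 CPM, and the kinase SGK1 (7.56 ± 0.402 against 4.32 ± 0.270 CPM) and the mTOR inhibitor DDIT4 (120.2 ± 5.90 against 81.5 ± 5.94 CPM) were higher. AKT1 was at 201 ± 9.99 against 193 ± 9.89 CPM and did not pass (adjusted p = 0.64, edgeR).

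Proliferation genes were lower in MR49F by small folds. Of 70 tested genes 43 were lower and 8 higher (median -0.35), but only 6 were more than 2-fold lower and none more than 2-fold higher. MCM3, of the replicative helicase, stood at 106, 105 and 102 CPM in the MR49F libraries and 222, 217 and 209.9 CPM in the C4-2 libraries (log2 fold change -1.05, SE 0.09, adjusted p = 1.3e-08, edgeR). CDC45, which activates that helicase, was at 34.1 ± 1.84 against 70.9 ± 4.41 CPM, the thymidylate synthase TYMS at 106 ± 4.78 against 197 ± 18.5 CPM and the mitotic kinase AURKB at 32.4 ± 2.03 against 62.3 ± 4.98 CPM. CDK6, a G1 kinase, was lower at 1.99 ± 0.708 against 13.9 ± 3.63 CPM. CDK1, the mitotic kinase, was at 630.3 ± 37.4 against 637 ± 18.9 CPM and did not pass (adjusted p = 0.90, edgeR). A test against a 1.5-fold change kept 12 of the lower calls.

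Among DNA repair genes 8 of 30 tested members were higher and 12 lower in MR49F (median log2 fold change -0.20). BRCA2 (43.8 ± 6.58 against 136 ± 30.7 CPM), the exonuclease EXO1 (12.3 ± 0.702 against 41.7 ± 5.25 CPM), the checkpoint scaffold MDC1 (127 ± 8.08 against 276 ± 34.6 CPM), the Fanconi gene FANCA (34.4 ± 5.10 against 70.3 ± 2.86 CPM) and the kinase CHEK2 (38.9 ± 2.76 against 63.6 ± 3.57 CPM) were lower. PRKDC, the catalytic subunit of DNA-PK, did not pass (adjusted p = 0.54, edgeR), except without C4-2 replicate 1 (-0.20). Of apoptosis genes and p53 targets, 9 of 40 tested members were higher and 13 lower in MR49F (median log2 fold change -0.02), near the share over all genes. BCL2, the survival factor, stood at 16.4, 13.7 and 15.8 CPM in the MR49F libraries and 4.63, 5.46 and 4.201 CPM in the C4-2 libraries (log2 fold change 1.69, SE 0.16, adjusted p = 5.9e-08, edgeR). The death receptor FAS (6.19 ± 1.03 against 16.6 ± 1.92 CPM) and the BH3-only factor BMF (6.27 ± 0.497 against 29.6 ± 1.43 CPM) were lower, and MCL1 did not pass (adjusted p = 0.11, edgeR), except with the LNCaP libraries in the fit (0.19).

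Of 43 tested chromatin regulators, 19 were higher and 10 lower (median 0.20), against 27.2% and 30.4% of all tested genes, and none was more than 2-fold apart. EZH2, the methyltransferase of Polycomb complex PRC2, was lower at 63.1 ± 0.833 against 113 ± 1.77 CPM, as was its partner JARID2 at 20.9 ± 1.92 against 36.3 ± 5.08 CPM. The demethylase KDM5B (127 ± 1.40 against 79.9 ± 7.77 CPM), the deacetylase HDAC2 (267 ± 23.7 against 173 ± 11.8 CPM) and the bromodomain protein BRD3 (89.7 ± 1.99 against 56.1 ± 4.22 CPM) were higher, and BRD2 did not pass (adjusted p = 0.68, edgeR). Of histone genes, 1 of 8 tested members were higher and 2 lower in MR49F (median log2 fold change -0.04). H2BC21 was higher (137 ± 2.57 against 81.6 ± 4.43 CPM), H2BC5 (10.2 ± 1.79 against 13.4 ± 0.763 CPM) and H2BC7 (1.60 ± 0.0247 against 3.06 ± 0.759 CPM) lower, and H1-2 did not pass (adjusted p = 0.77, edgeR). Histone genes of a family are near-identical, and neither lower member was called by DESeq2, without C4-2 replicate 3 or without MR49F replicate 3 (H2BC7 -0.74 and -0.78, H2BC5 -0.36 and -0.25). H2BC7 also lost its call with voom (-0.67) and without C4-2 replicate 2 (-0.61), MR49F replicate 1 (-0.79) or MR49F replicate 2 (-0.80).

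In energy metabolism some genes differed widely. Of genes of hypoxia and glycolysis, 8 of 34 tested members were higher and 12 lower in MR49F (median log2 fold change -0.12), near the 27.2% and 30.4% over all tested genes. Beside LDHB, the lactate exporter SLC16A3 was lower at 0.429, 0.812 and 0.563 CPM in the MR49F libraries and 45.9, 36.7 and 42.99 CPM in the C4-2 libraries (log2 fold change -6.12, SE 0.22, adjusted p = 5.1e-14, edgeR), while LNCaP held only 1.14 ± 0.114 CPM. The carbonic anhydrase CA12 was lower at 7.19 ± 0.515 against 85.4 ± 3.31 CPM, and PDK1, a brake on pyruvate dehydrogenase, was higher at 127 ± 3.39 against 56.5 ± 5.23 CPM. GAPDH was at 1761 ± 129 against 1618 ± 234 CPM and did not pass (adjusted p = 0.35, edgeR), except without C4-2 replicate 1 (0.25).

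Fatty acid genes moved in both directions, with 11 higher and 15 lower of 37 tested, median -0.01. FASN, fatty acid synthase, stood at 1291, 1443 and 1197 CPM in the MR49F libraries, 364, 403 and 433 CPM in the C4-2 libraries and 532, 547 and 518 CPM in the LNCaP libraries (log2 fold change 1.71, SE 0.10, adjusted p = 8.7e-11 for MR49F against C4-2, edgeR). All MR49F libraries were above all others. The acyl-CoA synthetase ACSL3 (1127 ± 103 against 473 ± 6.33 CPM) and the desaturase SCD5 (33.8 ± 1.94 against 9.10 ± 1.12 CPM) were higher, and the desaturase FADS1 (85.1 ± 4.03 against 338 ± 7.12 CPM) and the dehydrogenase ACADL (1.18 ± 0.410 against 17.8 ± 1.19 CPM) lower. ACACA, acetyl-CoA carboxylase, was at 545 ± 18.6 against 490.3 ± 61.8 CPM and did not pass (adjusted p = 0.20, edgeR), except without C4-2 replicate 2 (0.25). Of cholesterol genes, 4 of 32 tested members were higher and 13 lower in MR49F (median log2 fold change -0.15), and 8 were lower without MR49F replicate 2. The exporter ABCA1 (4.92 ± 0.933 against 1.13 ± 0.607 CPM), the synthesis enzyme NSDHL (74.2 ± 5.85 against 35.1 ± 4.49 CPM) and the carrier STARD4 (54.2 ± 5.64 against 31.1 ± 3.56 CPM) were higher. MYLIP (17.3 ± 0.617 against 31.3 ± 0.701 CPM), which degrades the LDL receptor, was lower. SREBF2, the regulator of the pathway, was at 227 ± 21.2 against 224 ± 5.52 CPM and did not pass (adjusted p = 0.89, edgeR).

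Amino acid and one-carbon genes were balanced, with 15 higher and 15 lower of 40 tested, median -0.01. SLC7A5, the leucine transporter LAT1, stood at 3.43, 3.25 and 2.59 CPM in the MR49F libraries, 257, 203 and 250.2 CPM in the C4-2 libraries and 4.99, 6.75 and 4.94 CPM in the LNCaP libraries (log2 fold change -6.26, SE 0.15, adjusted p = 3.2e-16 for MR49F against C4-2, edgeR). C4-2 was the line apart, since LNCaP and MR49F were both low. The arginine transporter SLC7A2 (23.4 ± 1.498 against 106 ± 19.7 CPM) and the argininosuccinate synthase ASS1 (4.25 ± 0.371 against 24.6 ± 3.02 CPM) were lower, and the arginase ARG2 (238 ± 7.56 against 59.2 ± 7.49 CPM) and the glycine decarboxylase GLDC (9.99 ± 1.33 against 1.65 ± 0.370 CPM) higher. PHGDH did not pass (adjusted p = 0.72, edgeR).

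Of unfolded protein response genes, 7 of 32 tested members were higher and 16 lower in MR49F (median log2 fold change -0.24), and only 1 was more than 2-fold lower. The transcription factor XBP1 (179 ± 1.54 against 349.9 ± 50.6 CPM), the chaperone CALR (1123 ± 17.9 against 2027 ± 305 CPM), the co-chaperones DNAJB11 (92.8 ± 6.02 against 152 ± 6.02 CPM) and DNAJC3 (74.1 ± 5.86 against 143 ± 9.82 CPM) and the degradation factor DERL1 (121 ± 4.55 against 202 ± 1.17 CPM) were lower. HSPA5, the main chaperone of the endoplasmic reticulum, was at 1192 ± 41.2 against 1182 ± 109 CPM and did not pass (adjusted p = 0.93, edgeR). Of heat shock and receptor chaperones, 7 of 20 tested members were higher and 5 lower in MR49F (median log2 fold change 0.05). HSPA8 (2959.9 ± 119 against 1709 ± 147 CPM) and STIP1 (296 ± 6.52 against 201 ± 16.1 CPM) were higher, and the small heat shock genes HSPB1 (41.7 ± 3.77 against 167 ± 41.3 CPM) and HSPB8 (0.335 ± 0.194 against 2.82 ± 0.221 CPM) lower. HSP90AA1 was at 1877 ± 155 against 1806 ± 129 CPM and did not pass (adjusted p = 0.65, edgeR). The lower members numbered 3 without MR49F replicate 1 or without MR49F replicate 2.

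Of drug and xenobiotic genes, 7 of 37 tested members were higher and 20 lower in MR49F (median log2 fold change -0.48), and the median was -0.31 without C4-2 replicate 1. SLC22A3, an organic cation transporter, stood at 0.107, 0.232 and 0.338 CPM in the MR49F libraries, 53.3, 49.7 and 55.9 CPM in the C4-2 libraries and 621, 598 and 668 CPM in the LNCaP libraries (log2 fold change -7.83, SE 0.23, adjusted p = 5.7e-15 for MR49F against C4-2, edgeR). Its order was LNCaP, C4-2, MR49F, with wide gaps. CYP1B1, a hydroxylase of oestrogens and polycyclic hydrocarbons, was 640.3-fold (95% interval 115 to 25308) lower by pooled counts with no read in LNCaP, and the anion transporter SLCO3A1 was at 0.707 ± 0.469 against 16.4 ± 1.18 CPM. The efflux pump ABCC4 was at 393 ± 11.03 against 354 ± 27.6 CPM and did not pass (adjusted p = 0.16, edgeR), although its libraries did not overlap.

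Of axon guidance and ephrin genes, 9 of 38 tested members were higher and 16 lower in MR49F (median log2 fold change -0.19). The ephrin ligand EFNB2 stood at 12.8, 12.4 and 11.9 CPM in the MR49F libraries and 147, 171 and 169 CPM in the C4-2 libraries (log2 fold change -3.71, SE 0.12, adjusted p = 9.1e-15, edgeR). The receptor EPHA5, opposite to EPHA7 above, was at 0 CPM in all MR49F libraries and 13.1, 18.6 and 14.3 CPM in the C4-2 libraries, at least 125-fold lower. The semaphorin SEMA6D was higher at 24.8 ± 2.47 against 1.47 ± 0.311 CPM, and EFNA5 did not pass (adjusted p = 0.17, edgeR). Of genes of small GTPases that shape the actin skeleton, 8 of 20 tested members were higher and 6 lower in MR49F (median log2 fold change 0.11). RND3, an atypical small GTPase that opposes RHOA, stood at 179, 186 and 197 CPM in the MR49F libraries, 5.95, 5.59 and 6.16 CPM in the C4-2 libraries and 0, 0.113 and 0 CPM in the LNCaP libraries (log2 fold change 4.99, SE 0.12, adjusted p = 2.1e-16 for MR49F against C4-2, edgeR). The atypical RHOU was higher (188 ± 18.5 against 55.8 ± 3.43 CPM), and RHOV (6.55 ± 0.188 against 21.1 ± 3.33 CPM), RHOC (95.2 ± 11.6 against 189 ± 38.5 CPM) and the kinase LIMK2 (23.01 ± 3.12 against 72.4 ± 2.37 CPM) lower. RHOA was at 326 ± 11.5 against 323 ± 17.5 CPM and did not pass (adjusted p = 0.91, edgeR).

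Of ion channels, 3 of 25 tested members were higher and 16 lower in MR49F (median log2 fold change -0.55). The calcium channel CACNA1D was higher at 31.9 ± 0.820 against 11.2 ± 1.74 CPM, and the ryanodine receptor RYR2 (10.8 ± 1.76 against 44.4 ± 10.1 CPM), the potassium channel KCNN2 (42.5 ± 2.38 against 86.1 ± 8.58 CPM) and ANO7 (0.898 ± 0.147 against 10.8 ± 0.765 CPM) were lower. The calcium pump ATP2A2 did not pass (adjusted p = 0.27, edgeR). Of cadherin-family genes, 10 of 17 tested members were higher and 5 lower in MR49F (median log2 fold change 0.68). CDH7 was at 12.4 ± 2.21 against 0.159 ± 0.108 CPM, PCDH7 was 203-fold (95% interval 55.5 to 1691) higher by pooled counts, and the clustered PCDHB5 stood at 24.6, 25.5 and 21.8 CPM in the MR49F libraries, 0.528, 0.372 and 0.980 CPM in the C4-2 libraries and 28.6, 30.2 and 27.2 CPM in the LNCaP libraries. Every LNCaP library held more PCDHB5 than any MR49F library. PCDHB2 was higher too, at 19.1 ± 0.555 against 2.34 ± 0.193 CPM, and the LNCaP libraries, at 20.2 ± 1.32 CPM, overlapped those of MR49F. The PCDHB genes resemble each other, and their counts are uncertain. CELSR1 was lower (24.99 ± 1.62 against 65.5 ± 2.33 CPM) and CELSR2 did not pass (adjusted p = 0.60, edgeR).

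Of 24 tested HOX and homeobox genes, from 36 listed, 18 were lower and 1 higher (median -1.10). HOXA13 and HOXA5, scarce in MR49F, passed the filter through C4-2 and so could only come out lower. The count and the median of this list thus partly follow from the filter. HOXA13 stood at 0 CPM in all MR49F libraries and 9.58, 11.3 and 9.80 CPM in the C4-2 libraries, at least 88.1-fold lower, and LNCaP held 0.0833 ± 0.0732 CPM. HOXA10 was at 6.38 ± 0.604 against 58.7 ± 3.16 CPM, HOXA5 at 0.303 ± 0.181 against 4.96 ± 0.747 CPM and HOXB9 at 1.19 ± 0.369 against 9.77 ± 1.25 CPM, with LNCaP between the lines in each. HOXB13 passed as a further higher member with DESeq2 (0.23) and without MR49F replicate 3 (0.28).

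Of SOX, KLF and AP-1 factors, 8 of 25 tested members were higher and 8 lower in MR49F (median log2 fold change 0.04), near the 27.2% and 30.4% over all tested genes. SOX9, a factor of prostate progenitors, stood at 0, 0.232 and 0 CPM in the MR49F libraries, 30.6, 34.3 and 33.9 CPM in the C4-2 libraries and 8.06, 8.44 and 6.59 CPM in the LNCaP libraries, 422.8-fold (95% interval 117 to 3494) lower by pooled counts. KLF4 was lower at 0.941 ± 0.375 against 15.5 ± 1.45 CPM and KLF5 higher at 13.9 ± 2.01 against 2.95 ± 0.515 CPM. MYC stood at 377, 375 and 362 CPM in the MR49F libraries and 182, 161 and 175 CPM in the C4-2 libraries (log2 fold change 1.10, SE 0.09, adjusted p = 7.9e-09, edgeR), and the immediate early gene FOS was lower at 28.1 ± 4.09 against 88.0 ± 13.7 CPM. Of ETS factors, 4 of 14 tested members were higher and 6 lower in MR49F (median log2 fold change -0.17). ELK4 (465 ± 26.2 against 189.8 ± 35.1 CPM) and ELK1 (74.5 ± 0.782 against 33.1 ± 1.84 CPM) were higher, and ELF1 (21.2 ± 1.60 against 44.3 ± 5.87 CPM), ELF5 (4.71 ± 0.819 against 20.8 ± 0.463 CPM) and ETV6 (15.4 ± 0.217 against 34.3 ± 2.17 CPM) lower, while SPDEF did not pass (adjusted p = 0.11, edgeR), except without C4-2 replicate 2 (-0.29).

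All 12 tested cancer-testis and placental antigens, from 32 listed, were called, 9 higher and 3 lower (median 0.85). For members on the X chromosome the nearer background is that chromosome, where 69.3% of 538 tested genes were higher and 10.4% lower (median 0.62). Whether the list differs from the X as a whole was not tested. ADAM2, scarce in C4-2, and PAGE1, scarce in MR49F, passed the filter through 1 line alone. MAGEA10 stood at 46.4, 47.2 and 51.9 CPM in the MR49F libraries, 0.336, 1.24 and 0.420 CPM in the C4-2 libraries and 65.2, 58.5 and 64.8 CPM in the LNCaP libraries (log2 fold change 6.60, SE 0.24, adjusted p = 7.1e-14 for MR49F against C4-2, edgeR). MAGEA1 moved the other way at 21.2, 18.8 and 18.6 CPM in the MR49F libraries and 115, 106 and 104 CPM in the C4-2 libraries (log2 fold change -2.47, SE 0.11, adjusted p = 1.0e-12, edgeR), although MAGEA genes share much sequence. PAGE1 stood at 0.7501, 0.232 and 0.563 CPM in the MR49F libraries, 312, 231 and 240.1 CPM in the C4-2 libraries and 3.18, 2.81 and 3.02 CPM in the LNCaP libraries (log2 fold change -8.95, SE 0.22, adjusted p = 3.6e-16, edgeR). All 3 genes lie on the X chromosome, with MAGEA10 lowest in C4-2 and PAGE1 lowest in MR49F. MAGED2, a ubiquitous relative, was higher at 343 ± 17.2 against 97.8 ± 11.9 CPM.

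By chromosome, the X stood apart from the autosomes. Of 538 tested X genes 373 (69.3%) were higher and 56 (10.4%) lower in MR49F, with a median log2 fold change of 0.62. The median of the same genes was 0.49 for MR49F over LNCaP and -0.09 for C4-2 over LNCaP, comparisons that share the LNCaP libraries. Among autosomes the medians ranged from -0.43 on chromosome 13 (154 of 266 genes lower) to 0.28 on chromosome 4 (257 of 530 higher). Chromosomes 22 and 16 had medians of -0.41 each, and chromosome 6 of -0.27. Genes on a chromosome share their copy number and are not independent, and no copy number was measured.

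Over 279 windows of 10 Mb with at least 15 tested genes, the 5th and 95th percentiles of the window medians were -0.42 and 0.54. The lowest lay at chr19:20000001-30000000, where 37 of 47 tested genes were lower (median -1.12). It holds a cluster of zinc finger genes, among them ZNF43 at 2.12 ± 0.476 against 45.7 ± 2.88 CPM, ZNF100 at 5.88 ± 0.675 against 44.0 ± 7.01 CPM and ZNF257 at 0 CPM in all MR49F libraries and 12.7, 16.5 and 13.2 CPM in the C4-2 libraries. LNCaP held 81.3 ± 2.25 CPM of ZNF43 and 52.0 ± 1.19 CPM of ZNF100. For this window the median was -1.12 for MR49F over LNCaP and -0.23 for C4-2 over LNCaP.

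At chr6:50000001-60000000, 20 of 24 genes were lower and none higher (median -1.01), including the co-chaperone BAG2 (0.551 ± 0.377 against 51.6 ± 2.92 CPM), RAB23 (10.8 ± 0.178 against 36.9 ± 5.63 CPM) and TMEM14A (37.7 ± 1.14 against 99.4 ± 0.475 CPM). Here MR49F lay at -0.09 over LNCaP and C4-2 at 0.87. At chr13:30000001-40000000, 24 of 29 were lower (median -0.89), including FRY (6.31 ± 1.66 against 67.5 ± 10.2 CPM), N4BP2L1 (0.404 ± 0.213 against 8.08 ± 1.74 CPM) and SPART (2.09 ± 0.821 against 14.03 ± 1.01 CPM), with MR49F at -0.05 and C4-2 at 0.73 over LNCaP. In these windows the excess of C4-2 over LNCaP was wider than the distance of MR49F from LNCaP.

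The 3 highest windows were all on the X chromosome. At chrX:50000001-60000000, 30 of 34 genes were higher and none lower (median 0.88), including APEX2 (138 ± 14.5 against 42.3 ± 4.07 CPM), MAGED2 and NUDT11 (26.6 ± 1.48 against 4.55 ± 0.220 CPM). At chrX:60000001-70000000, 17 of 21 were higher (median 0.82), including ZC4H2 (30.3 ± 2.83 against 7.93 ± 0.977 CPM). At chrX:150000001-160000000, 55 of 71 were higher (median 0.73), including CETN2 (108 ± 9.50 against 33.0 ± 2.25 CPM), RAB39B (19.3 ± 2.38 against 3.07 ± 0.263 CPM) and MAGEA10.

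**Figure D5:**
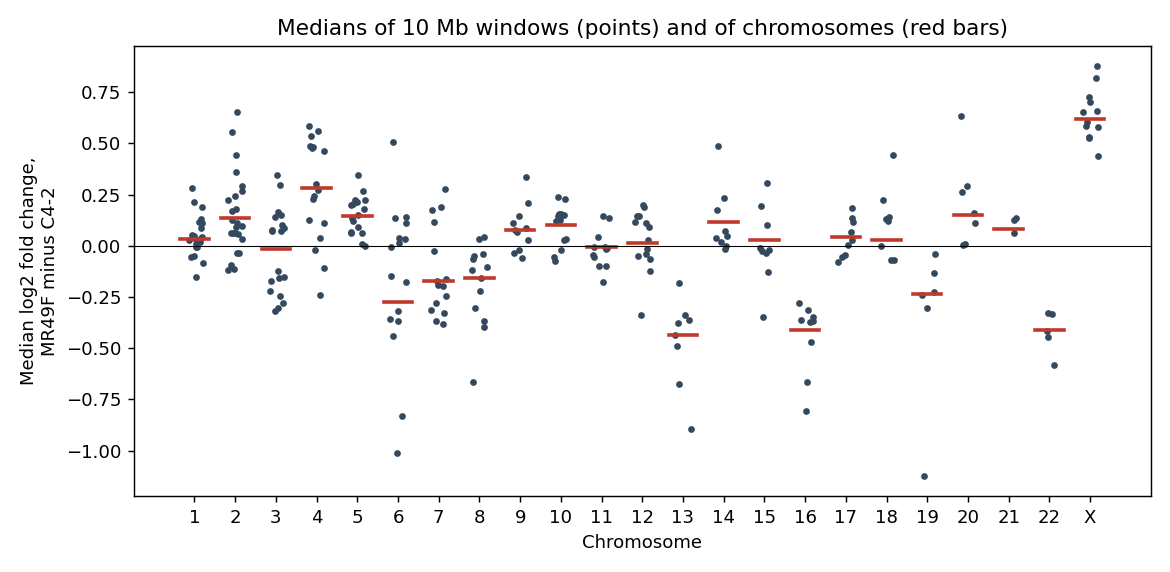
Points are medians of the fitted log2 fold change (MR49F minus C4-2) of 279 windows of 10 Mb with at least 15 tested genes, by chromosome, and red bars are the medians of all tested genes of a chromosome. All windows of the X lie above 0, and the lowest window, at -1.12, is on chromosome 19.

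By gene type, long non-coding genes were more often lower than higher. Of 1503 tested, 498 (33.1%) were lower and 238 (15.8%) higher in MR49F, while of 12220 protein-coding genes 3835 (31.4%) were lower and 3528 (28.9%) higher. Without C4-2 replicate 1, the deepest library, 463 long non-coding genes (29.2%) were lower and 234 (14.8%) higher.

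Of 16 genes often used as references, 5 were higher and 6 lower (median 0.13), near the shares of 27.2% and 30.4% over all tested genes. Without C4-2 replicate 1 the median of these genes was 0.24, with 9 higher. HPRT1 (101 ± 7.59 against 60.6 ± 3.65 CPM) and PGK1 (713 ± 9.96 against 485 ± 31.6 CPM), both on the X chromosome, and RPLP0 (291 ± 17.2 against 173 ± 37.0 CPM) were higher, and GUSB (66.0 ± 4.72 against 124 ± 18.7 CPM) and YWHAZ (664 ± 62.8 against 934 ± 30.6 CPM) lower. C4-2 replicate 1 held 216 CPM of RPLP0 and 144 CPM of GUSB, above both other C4-2 libraries in each.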

How the data were processed

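Poly(A)-selected RNA of prostate cancer cell lines was sequenced as read pairs on a HiSeq2500 after a stranded TruSeq preparation, per the labels' protocols and the series' design text. The authors deposited whole-number counts per Ensembl gene, 1 column per library and not normalized, and these deposited counts are the values used. Tools named, with no order, in the submitters' processing notes are HTSeq 0.6.1, TopHat2, edgeR 3.12.1 and FastQC 0.11.3, with the build GRCh38.p12. The sources used here give neither the strand setting nor the annotation release, so overlapping, antisense and near-identical genes are uncertain. Of the table, 3 columns matched no sample and were not used.

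The 3 MR49F and 3 C4-2 columns were compared with edgeR 4.0.16 in R 4.3.3 (robust quasi-likelihood fit, TMM, filterByExpr by line, 4 residual degrees of freedom), with Benjamini-Hochberg adjustment over 14998 genes. Every adjusted p printed is from this fit unless the sentence names another tool or a library left out. LNCaP values were put on the same scale and entered only the alternative fit of 9 libraries. CPM use TMM-scaled sizes, and SE is the absolute log2 fold change over the square root of F. A line with no read is given a floor of 3 counts over the group, and 1 to 3 reads give a ratio with an exact 95% interval. Of 57992 entries, 56948 had a symbol and 57388 a GENCODE 29 record. Depth sets the precision: genes near 1 CPM rest on about 7 to 9 reads per library, except in C4-2 replicate 1.

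The members, the 44 gene lists and the rule for named genes were chosen with earlier results of these data known. The rule takes, in each direction, the 8 widest changes at 10 CPM or more in the higher line and the 8 with the highest CPM among those over 4-fold, all called and without overlap of replicates, all tested Notch receptors, ligands and targets, KLK3, NR3C1 and HES6 among others, then per list the 5 lowest adjusted p and the best expressed gene that did not pass, and 3 genes in each of the 3 highest and 3 lowest windows of 10 Mb, leaving out the Y chromosome. TMPRSS2, PMEPA1 and the cut-offs for near-silent genes were chosen after values were seen. Some genes the rule takes are not reported here. The test was checked on simulated data of 14998 genes with 200 changed, which called 18 unchanged genes. Alternatives were DESeq2 1.42.0, voom of limma 3.58.1, RLE scaling, other filters, 9 libraries in the fit, a replicate block, thinning of C4-2 replicate 1 to 17.6%, a test against 1.5-fold, smaller windows and each library left out.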

Additional observations from a re-analysis of the deposited data

How the results depend on the processing

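No gene called in the comparison changed sign under any of 15 alternatives. Genes higher and lower numbered 3924 and 4125 with DESeq2, 4193 and 4458 with RLE scaling, 4115 and 4480 with voom, 4185 and 5633 without a filter, 4606 and 4786 with 9 libraries in the fit, and 4028 and 4422 with C4-2 replicate 1 thinned, all within 1.5 times the 4083 and 4557 reported. A test against a 1.5-fold change left 1156 and 2008, a stricter question by construction, and under it most list counts shrank and 27 of the named genes lost their call. Leaving out each library gave 3563 to 4428 higher and 4037 to 4611 lower genes.

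Deviations of same-numbered libraries from the mean of their line correlated at 0.10, -0.14 and -0.02, and those of different numbers at -0.19 to 0.21. Same-numbered libraries were thus not more alike than others. Deviations from a mean of 3 libraries depend on each other, so these values cannot settle whether a number marks a shared batch. With the replicate block, 4196 genes were higher and 4556 lower.

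Genes near 0 that did not pass changed sign. HSPA5 (-0.0052) and RHOA (-0.0039) did so without a filter. LY6E did so with DESeq2 (0.014), RLE scaling (0.010), a filter of 1 CPM (0.0018), 9 libraries (0.0095) and the replicate block (0.015), and SNAI1 with DESeq2 (0.063), the block (0.13) and thinning (0.053). With libraries left out, log2 fold changes ranged from -0.056 to 0.040 for CDK1, -0.029 to 0.12 for DTX3L, -0.0042 to 0.089 for FOLH1, -0.097 to 0.11 for H1-2, -0.66 to 0.0015 for HEY1, -0.0078 to 0.12 for HSP90AA1, -0.040 to 0.090 for HSPA5, -0.47 to 0.19 for ITGB4, -0.043 to 0.17 for JAG2, -0.11 to 0.17 for LY6E, -0.22 to 0.0084 for NOTCH2, -0.0076 to 0.17 for PHGDH, -0.20 to 0.051 for PRKDC, -0.024 to 0.061 for RHOA, -0.18 to 0.050 for SMAD5, -0.27 to 0.62 for SNAI1, -0.055 to 0.034 for SOX4 and -0.013 to 0.099 for SREBF2. In each of these the cause was not tested.

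Depth limits the low genes: C4-2 replicate 1 held about 5 times the reads of the others, and the fits of genes with under 10 reads in a line, such as HES4, rest on few counts.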
